A study of Mus musculus with 2 samples.

Results

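The activator protein 1 (AP-1) genes and their BATF relatives were described in RNA sequencing of mouse Th1 cells, which are CD4 T cells skewed in culture toward IFNγ production. The 10 genes were chosen by symbol and by no rule on their values, though earlier results of these data were known. They are Jun, Junb and Jund of the JUN group, Fos, Fosb, Fosl1 and Fosl2 of the FOS group, and Batf, Batf3 and Atf3. All 10 were found among the 24421 genes listed in each of the 2 libraries. The study measured JunB in Th2 cells, and its transcript was set here beside its relatives in Th1 cells.

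AP-1 proteins are basic leucine zipper (bZIP) transcription factors that bind DNA as pairs. JUN proteins can pair with each other or with FOS proteins, whereas FOS proteins need a JUN partner. BATF proteins lack the activation domain of FOS, pair with JUN proteins, and bind together with IRF4 or IRF8 at composite sites in T cells. Several AP-1 genes are immediate early genes, which are transcribed within minutes of T cell receptor and costimulatory signals and make short-lived transcripts. JunB is best known in T helper cells for its part in IL-4 expression by Th2 cells, and BATF for its part in Th17 and effector T cell differentiation.

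The first library was labelled WT Th1 (Chi3l1+/+) and the second KO Th1 (Chi3l1-/-), both from in vitro skewed Th1 cells on the C57BL/6J background. Both were prepared in the same way from naïve CD4 T cells of wild-type mice or mice with a disrupted gene of chitinase 3-like 1, activated through CD3 and CD28 with IL-12, IL-2 and antibody to IL-4. The methods name culture for several days before measurement, and neither the labels nor the methods give how many mice went into each library. With 1 library per genotype (n = 1 each), no difference had a replicate check, no test between genotypes was possible, and no p-value is given. The disrupted gene went against the labels: Chil1, the symbol of Chi3l1 in the tables, had a log2 value of 0.94 in the library labelled WT and 6.66 in the library labelled KO, a difference of +5.71. A value per gene cannot show which exons the reads came from, so every direction below is that of the library labelled KO against the library labelled WT.

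Values are the deposited log2(normalized count + 1), and a difference is the value in the library labelled KO minus that in the library labelled WT. Read counts were rebuilt from the even steps of the low values and summed to 71078600 in the library labelled WT and 63384900 in the library labelled KO. Each difference has an exact binomial (Clopper-Pearson) 95% interval from these reads, which holds read sampling only and not the spread between mice or cultures. The T cell markers Cd3d, Cd3e, Cd3g, Cd4, Cd2, Cd5 and Lck were between 11.9 and 16.5 in both libraries. As deposited, 1 of the 7 was higher in the library labelled KO, and 4 were with equal totals, an alternative scaling named below. The Th1 markers Tbx21, Stat4, Il12rb2, Ifng and Cxcr3 were between 6.82 and 14.3, with Cxcr3 lowest at 8.05 and 6.82. Markers of other cells were below the T cell markers, but some reached the values of members such as Fosb and Batf3. The summed normalized counts of 2 CD8 T cell markers were 812 and 807, and of 2 NK cell markers 16.4 and 14.4. Those of 4 B cell markers were 670.2 and 1061. Sums were 675 and 578 for 6 monocyte or macrophage markers, and 81.2 and 4.79 for 7 neutrophil markers. A sum can hold opposite moves: Cd8a differed by +0.60 and Cd8b1 by -0.47, and Csf1r by +0.83 and Itgam by -0.81. In bulk RNA, fewer cells of a type and less RNA per cell cannot be told apart.

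Promoter sequences of 4 members are shown because the members differ in the letters next to their start sites. RefSeq promoters (GRCm38.p6, the build mm10 of the study) were matched for 9 members, that is all but Fosl1, and the 250 bases before each RefSeq start, which for some members differs from the gene end given below, were searched. AP-1 binds the TRE, TGACTCA, and ATF and CREB proteins bind the CRE, TGACGTCA. Neither full motif was found in these windows of the 9 members, against 4.46% of 32851 promoters with the TRE and 1.55% with the CRE. The first 6 letters of the CRE, TGACGT, on either strand (every CRE also holds them), were found in Fos, Batf and Atf3 and in 6.47% of all promoters. TATAAA on the strand of the gene was found in Fos alone among the 9 and in 7.59% of all promoters. Lines run 5′ to 3′ on the strand of the gene, with these motifs in capitals and in the Atf3 line the reverse complement ACGTCA. Junb (chr8:84978749-84978868, minus strand), Fos (chr12:85473770-85473889, plus strand) and Atf3 (chr1:191183334-191183393, minus strand) end at the base before the start. Batf (chr12:85686600-85686659, plus strand) ends 61 bases before it.
Junb: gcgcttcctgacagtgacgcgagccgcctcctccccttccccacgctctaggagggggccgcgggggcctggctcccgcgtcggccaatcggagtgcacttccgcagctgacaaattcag
Fos: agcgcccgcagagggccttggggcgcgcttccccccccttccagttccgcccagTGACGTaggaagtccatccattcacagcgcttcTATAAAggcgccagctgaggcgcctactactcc
Batf: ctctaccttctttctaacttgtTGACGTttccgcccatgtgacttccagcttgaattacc
Atf3: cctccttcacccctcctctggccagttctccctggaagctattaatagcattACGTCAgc
The motif lies at bases -66 to -61 from the start in Fos, -98 to -93 in Batf and -8 to -3 in Atf3, and the TATAAA of Fos at -33 to -28. The 3 members with the CRE letters had differences from +0.10 to +0.34, and the 6 searched members without them ranged from -0.75 to +0.45. A match is a description of the letters, not a bound site.

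JUN transcripts made up most of the family in both libraries. Levels between genes were compared as RPKM, the rebuilt reads scaled by exon length and by the total of the library, within each library. The 3 JUN genes held 93.1% of the summed RPKM of the 10 members in the library labelled WT and 88.5% in the library labelled KO. Jund alone held 77.6% and 72.4%, and Junb 13.3% and 12.4%. The 4 FOS genes held 3.16% and 4.35%, and Batf, Batf3 and Atf3 together 3.69% and 7.11%. The order from the top was Jund, Junb, Batf, Jun and Fosl2 in both libraries, and Batf3 and Fosb were last in both. Between them, Fosl1, Fos and Atf3 lay from 3.96 to 4.67 RPKM in the library labelled WT and from 4.82 to 5.38 RPKM in the library labelled KO. The read sampling intervals of Fos and Atf3 overlapped in the library labelled WT, and those of Atf3 and Fosl1, and of Fosl1 and Fos, overlapped in the library labelled KO.

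**Figure D1:**
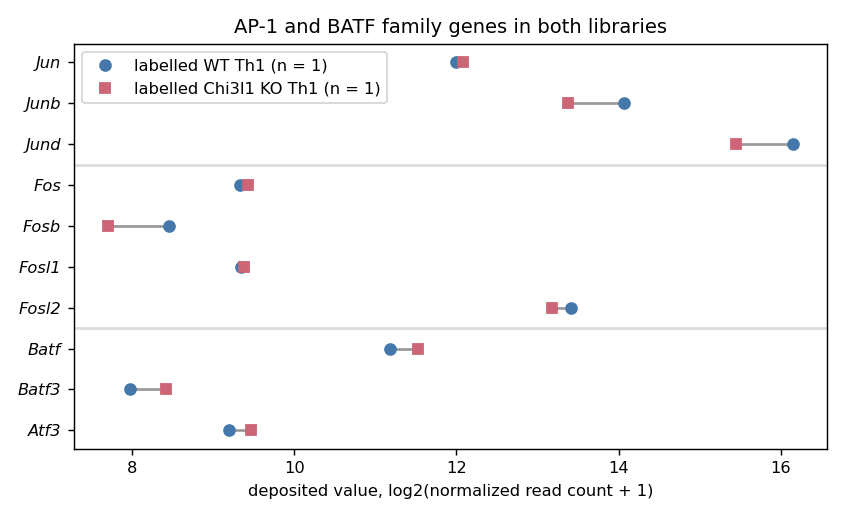
Deposited log2(normalized read count + 1) of the 10 genes (horizontal axis) in the library labelled WT (circles) and the library labelled Chi3l1 KO (squares), 1 library each and therefore without error bars. Jund, Junb and Fosb sit clearly to the left in the library labelled KO, and Batf, Batf3 and Atf3 to the right.

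Junb and Jund were lower and Jun was not in the library labelled KO. Junb (chr8:84974484-84978718 on mm10, minus strand), which restrains or replaces c-Jun depending on its partner, was 14.07 in the library labelled WT and 13.37 in the library labelled KO, from 17858 and 11016 rebuilt reads. Its difference was -0.70 (95% interval -0.73 to -0.67), so the library labelled KO held 61.6% of the level in the other. Jund (chr8:70698949-70700616, plus strand), the JUN member that most cells make constantly, was 16.15 and 15.45, from 75667 and 46546 reads. Its difference was -0.70 (95% interval -0.72 to -0.69), or 61.4% of the level in the library labelled WT. Its value was above that of 99.5% of all genes in the library labelled WT and 99.2% in the library labelled KO. Jun (chr4:95049034-95052222, minus strand), which encodes c-Jun, was 12 and 12.08, from 4252 and 4510 reads, a difference of +0.08 (95% interval 0.02 to 0.14). The 3 JUN genes thus did not move together: Junb and Jund shared a difference that lay outside the sampling interval of Jun.

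The ratio of 2 members within a library does not change when a library is multiplied by 1 factor, though it does under quantile normalization and removal of the GC trend. Jund stood at 5.85 times the RPKM of Junb in the library labelled WT and 5.83 times in the library labelled KO. Junb stood at 5.82 times Jun in the library labelled WT and 3.39 times in the library labelled KO, and Jund over Jun went from 34.0 to 19.7. Among the 10 ratios computed, which leave out pairs such as Junb and Batf3, the ratio of Junb to Batf differed most. This ratio was 4.52 and 2.20, a difference of -1.04 on the log2 scale. On that scale the ratio of Junb to Jun differed by -0.78 as deposited, -0.72 under quantile normalization and -0.51 with the GC trend removed, and that of Junb to Batf by -0.93 and -0.845 under the last 2.

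The genes nearest to Junb over its pair of values were looked up among all genes, by Euclidean distance over the 2 libraries. Snrpg, a core protein of spliceosomal particles, was 14.10 and 13.34 at a distance of 0.047. Camk2d, a subunit of calcium/calmodulin-dependent kinase II, was 14.01 and 13.36 at a distance of 0.064. Wibg, an exon junction complex factor, was 14.00 and 13.42 at a distance of 0.091. With 2 values per gene, likeness means only a like level and a like difference. It is of deposited values, without removal of the GC trend described below. Snrpg (46.4% GC) and Camk2d (43.9%) are lower in GC content than Junb (62.6%). Reads with several alignments were counted, and Snrpg has near-identical copies, so its value is uncertain.

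FOS genes split by member. Fosb (chr7:19302696-19310051, minus strand), which encodes an immediate early protein and a truncated form, was 8.46 in the library labelled WT and 7.70 in the library labelled KO, from 364 and 216 reads. Its difference of -0.75 (95% interval -1.01 to -0.51) was the lowest of the 10, on the fewest reads. Fosl2 (chr5:32135801-32157842, plus strand), which encodes Fra-2, was 13.41 and 13.18, from 11333 and 9643 reads, a difference of -0.24 (95% interval -0.28 to -0.20). Fosl2 was the most abundant FOS member per length, at 4.11 times Fos in the library labelled WT and 3.26 times in the library labelled KO. Fos (chr12:85473890-85477273, plus strand), which encodes the prototype c-Fos, was 9.34 and 9.43, from 670 and 719 reads. Its difference of +0.10 had an interval that held 0 (-0.06 to 0.25). Fosl1 (chr19:5447547-5455946, plus strand), which encodes Fra-1, was 9.35 and 9.38, from 675 and 691 reads, a difference of +0.03 (95% interval -0.12 to 0.19). For Fos and Fosl1, no difference was detectable at this depth in the deposited values. With the trend of differences with GC content removed, described below, Fos was at +0.19 and Fosl1 at +0.38. The intervals given belong to the deposited values and none was computed with the trend removed. Whether these 2 differences are detectable after its removal is therefore not shown.

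Batf, Batf3 and Atf3 were all higher in the library labelled KO. Batf (chr12:85686669-85709087, plus strand) was 11.18 in the library labelled WT and 11.52 in the library labelled KO, from 2412 and 3057 reads. Its difference was +0.34 (95% interval 0.26 to 0.42), or 126% of the level in the library labelled WT. Batf3 (chr1:191097847-191108945, plus strand), known for its part in the making of conventional dendritic cells and also present in activated T cells, was 7.97 and 8.42, from 260 and 355 reads. Its difference of +0.45 (95% interval 0.21 to 0.68) was the highest of the 10. Atf3 (chr1:191170296-191218039, minus strand), a stress-induced repressor that pairs with JUN proteins, was 9.19 and 9.46, from 606 and 734 reads, a difference of +0.27 (95% interval 0.12 to 0.43). Batf stood at 10.5 times Batf3 per length in the library labelled WT and 9.78 times in the library labelled KO. The summed normalized counts of 5 dendritic cell markers were 73.6 and 122. Of these, Flt3 was 4.203 and 6.062, Clec9a was at 0 in both, and Xcr1 was at 0 in the library labelled WT with 5 reads in the other. Zbtb46 had 14 and 48 reads, a difference of +1.71 (95% interval 0.89 to 2.75), and Itgax had 44 and 5 reads, the other way, and both are named after their values were seen. The part of such cells in the values of Batf3 was not tested.

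**Figure D2:**
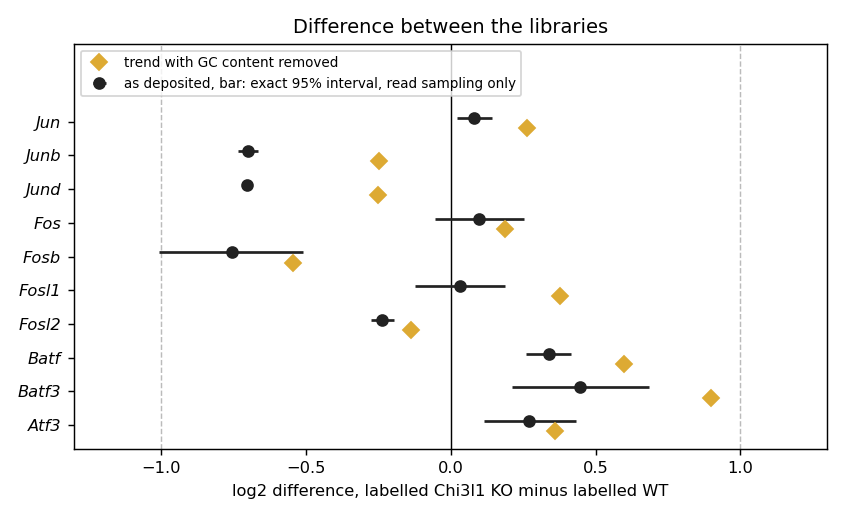
Log2 difference (library labelled Chi3l1 KO minus library labelled WT, horizontal axis) of the 10 genes as deposited (circles, bars for the exact 95% interval of read sampling only) and after the trend with GC content was removed (diamonds). Dashed lines mark 2-fold. No gene passes them, and the diamonds of Junb and Jund lie near -0.25.

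Over the whole family, 6 genes were higher and 4 lower in the library labelled KO, with a median difference of +0.06. The median was -0.70 over the JUN genes, -0.10 over the FOS genes and +0.34 over Batf, Batf3 and Atf3, beside 0 over all 24421 genes and -0.01 over the 8886 genes that reached a log2 value of 8 in both libraries. None of the 10 was at or past 2-fold in either direction, against 10.5% of all genes, many of which had few reads. Among genes that reached a value of 8 in both libraries, 0 of 8 members and 1.2% of genes were past 2-fold. At 1.5-fold, Junb, Jund and Fosb were lower, that is 3 of 10 members against 11.4% of all genes. With the floor of 8, which leaves out Fosb and Batf3, 2 of 8 members and 6.29% of genes were that much lower. With a floor of 7, which holds every member, it was 3 of 10 and 6.86%. These shares take no account of GC content, described below. In the highest of 20 bins of GC content, which holds Junb and Jund, the 25th percentile of the differences was -0.62, itself past 1.5-fold lower.

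Across genes, differences between these libraries moved with the GC content of the transcript, and the members lay on both sides of that trend. Across 8579 genes that reached a log2 value of 8 in both libraries, Spearman's rho of the difference with GC content was -0.525, taken across genes, which are not replicates. Jund (67.1% GC), Junb (62.6%) and Batf3 (60.7%) fell in the highest of 20 GC bins, where the median difference was -0.45 and the 5th to 95th percentiles ran from -0.94 to 0.17. Junb and Jund lay within that range, below its median, and Batf3 lay above it. Batf (56.6% GC) also lay above the 95th percentile of its bin, 0.22. Fosb (56.0% GC) lay below the 5th percentile of its bin, -0.68, though its 95% interval (-1.01 to -0.51) held that percentile. The bin percentiles come from genes that reached a log2 value of 8 in both libraries, which Fosb and Batf3 did not. With the trend removed, Junb was at -0.25, Jund at -0.25 and Fosb at -0.54, so none of the 3 stayed past 1.5-fold. Batf was then at +0.60 and Batf3 at +0.90, both past 1.5-fold in the other direction. The part of GC content in these differences was not tested. Jun, Junb and Jund each have 1 exon. The 410 protein-coding genes of 1 exon that reached a log2 value of 8 in both libraries had a median difference of -0.03 and a median GC content of 48.7%.

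**Figure D3:**
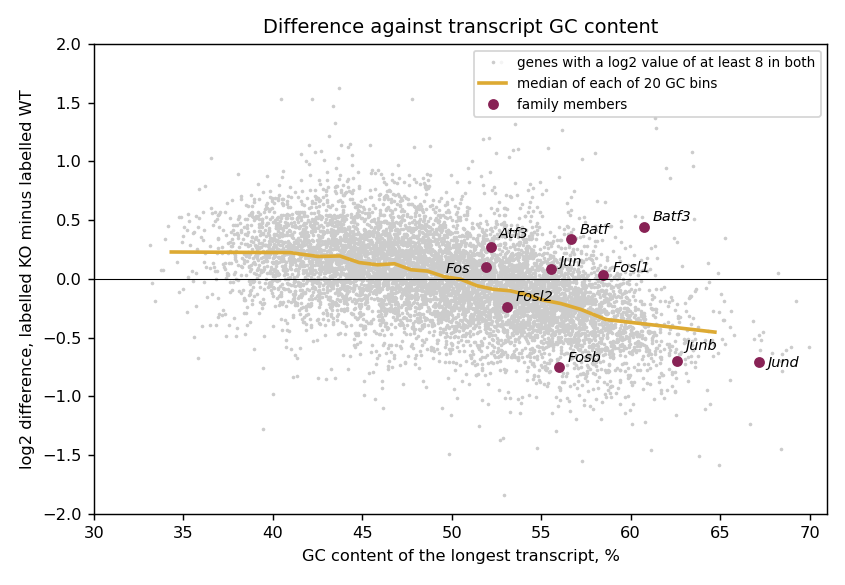
Log2 difference (library labelled KO minus library labelled WT, vertical axis) against the GC content of the longest transcript in percent (horizontal axis), with genes that reached a log2 value of 8 in both libraries as small points, the median of each of 20 GC bins as a line, and the 10 family genes as large points, including Fosb and Batf3, which are under that level (4 genes lie outside the axes). Junb and Jund lie below the line by about 0.25, and Batf and Batf3 above it by 0.60 and 0.90.

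Exons of 4 members overlap those of a gene on the opposite strand in the GENCODE M21 annotation, and the strand setting of the counting is not given in the sources used here. Junb shares 173 of its 2301 exon bases with Prdx2, a peroxiredoxin gene, which was 13.21 and 13.31. Fosl1 shares 1163 of its 2033 bases with Ccdc85b, which was 10.09 and 10.17. Jund shares 877 of its 1668 bases with the antisense gene Gm11175, and Jun 232 of its 3189 with Junos, neither of which is listed under these symbols. The levels of Jund and Fosl1 are therefore uncertain where reads of both strands were counted. Fos and Batf lie 209 kb apart on chromosome 12 with Jdp2, another AP-1 partner, between them, and their differences were +0.10, +0.34 and, for Jdp2, which is named for its position, +0.26. Batf3 and Atf3 lie 61.4 kb apart on chromosome 1, 56.9 Mb from Chil1, and Junb and Jund lie 14.3 Mb apart on chromosome 8.

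Other genes of the pathway were taken from lists of inputs, partners and outputs, counting genes that reached a log2 value of 6 in at least 1 library. Over the 11496 genes at that level, the median difference was -0.01, with 1.91% past 2-fold higher and 2.49% lower, and 7.23% past 1.5-fold higher and 9.26% lower. Immediate early genes outside the family were mostly lower in the library labelled KO: 14 of 16 were lower, 6 of them past 1.5-fold, with a median of -0.49. With the GC trend removed 14 were again lower, with a median of -0.30. With equal totals 12 were lower (median -0.34), with quantile normalization 12 (median -0.43) and scaled to Actb 13 (median -0.37). Within the family, Junb and Fosb were also lower as deposited, and Jun, Fos, Fosl1 and Atf3 were not. Ier2 was 12.42 and 11.54, the lowest of the list at -0.88, and Klf6, a zinc finger factor, was the highest at +0.61. Of 17 genes of the MAP kinase and PKCθ input that drives AP-1 transcription and phosphorylation, 12 were lower, with a median of -0.14, though with equal totals 8 were lower and the median was +0.004. Mapk3, which encodes ERK1, was lowest at -0.75, and Map2k1, which encodes its kinase MEK1, was highest at +0.35. Of 6 serum response factor genes, which act on the Fos and Junb promoters, 4 were lower (3 with equal totals), from -0.55 for Srf to +0.19 for Mkl2. Of 7 genes whose products act in the turnover of JUN proteins or AP-1 transcripts, 5 were lower (4 with equal totals). They ran from -0.83 for Zfp36l2, a binder of AU-rich elements, to +0.64 for Rfwd2, a ubiquitin ligase for c-Jun. None of the genes in these 4 lists was past 2-fold.

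Among partners, the other bZIP genes went both ways and the IRF genes one way. Of 19 other bZIP genes, 11 were higher and 8 lower, with a median of +0.03 and none past 2-fold. Crem, a cAMP-responsive factor, was the highest at 13.13 and 13.74, a difference of +0.61, and Atf5 the lowest at -0.53. Irf4 and Irf8, which encode the partners of BATF at composite sites, were both higher in the library labelled KO. Irf4 was 14.88 and 15.11, a difference of +0.24, and Irf8 was 14.96 and 15.27, a difference of +0.31. Batf and both of its IRF partners were therefore higher by 0.24 to 0.34 on the log2 scale as deposited. Each of these differences was smaller than the standard deviation of the difference, 0.37, over the 8886 genes that reached a log2 value of 8 in both libraries. B cells also make these 3 factors, and the 4 B cell markers Cd79a, Cd79b, Ms4a1 and Pax5 were all higher in the library labelled KO, by 0.27 to 0.96. The part of such cells in the values of Batf, Irf4 and Irf8 was not tested.

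Of 11 activation genes whose control regions hold known AP-1 sites, 10 were higher in the library labelled KO as deposited, with a median of +0.25. With the GC trend removed, 6 were higher and 5 lower, with a median of +0.07. Ifng, the Th1 cytokine, was 11.72 and 13.04, a difference of +1.32. Il3 was 6.04 and 7.29, from 67 and 162 reads, a difference of +1.25 (95% interval 0.85 to 1.70). Tnf, at -0.20, was the 1 gene of the list that was lower as deposited. Ifng and Il3 were the 2 past 2-fold, and with the GC trend removed they were at +1.13 and +1.17.

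**Figure D4:**
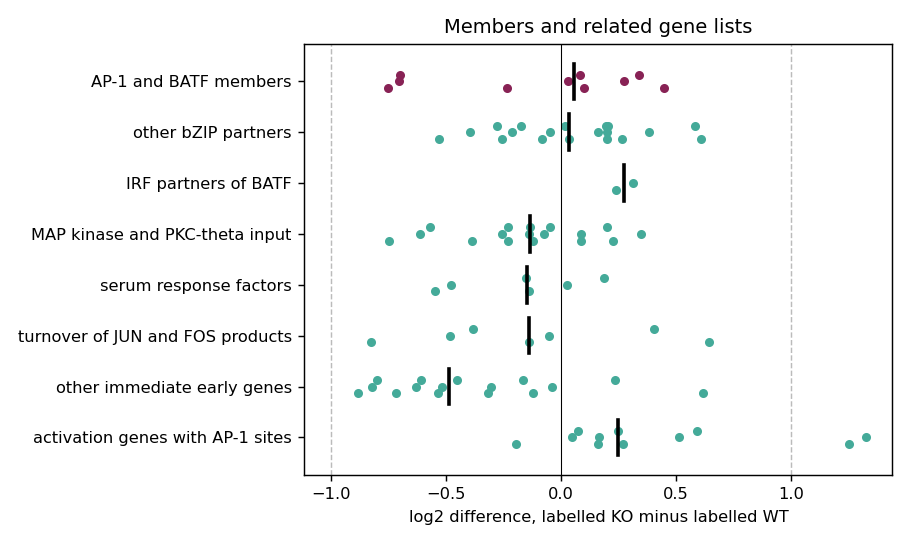
Log2 difference (library labelled KO minus library labelled WT, horizontal axis) of each family gene and of each gene in the related lists that reached a log2 value of 6 in at least 1 library, 1 point per gene, with black bars for list medians and dashed lines at 2-fold. The immediate early genes lie mostly to the left of 0 and the activation genes to the right, with 2 of the latter past 2-fold.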

How the data were processed

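The 2 samples (WT_Th1 and KO_Th1, n = 1 each) were grouped by their labels. The authors prepared libraries from polyadenylated RNA with the SENSE kit, sequenced both ends of each fragment, mapped reads with TopHat (build mm10 in the submitters' processing notes) and ran edgeR on counts that include multiple alignments, and they also describe cufflinks estimates and a global normalization. Which step made the deposited values is not given in the sources used here. The deposited tables hold 1 value per gene, read as log2(normalized count + 1), because after the log2 is undone 100% of low values (1863 and 1917, up to 8 reads) lie within 0.1 of a whole multiple of 0.963 or 0.961. Normalized counts summed to 68449000 and 60913100, Rn45s took 2.83% and 1.00% of them, and 3 reads correspond to a log2 value of 1.96. Counting intervals take reads as independent.

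Exon lengths, GC content and positions came from GENCODE M21. Python 3.11.15, numpy 2.4.6, pandas 2.3.3 and scipy 1.17.1 were used, and the interval calculation was tested on simulated independent (Poisson) counts. These hold no multiple alignments, so the test checks the calculation and not how well the intervals suit the real reads. The named genes are the 10 members, the 3 genes nearest to Junb, and, in each list, genes reaching a log2 value of 6 that are past 2-fold or have the largest difference in each direction, and others are marked where they appear. A marker gene under this rule is not reported here. The members and lists were chosen with earlier results of these data known. Alternatives were 0.1 or no pseudocount, floors on the log2 value (1, 8 and, chosen after seeing the data, 7), median-ratio, quantile, Actb and equal-total scaling, thresholds of 1.5-fold and 3-fold, and removal of the GC trend.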

Additional observations from a re-analysis of the deposited data

How the results depend on the processing

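No paired analysis was possible because each genotype has 1 library. Junb was lower in the library labelled KO under every alternative run, at -0.58 with quantile normalization, -0.58 scaled to Actb, -0.56 with equal totals without Rn45s and -0.25 with the GC trend removed. The median of the 10 genes, +0.06 as deposited, was +0.17 scaled to Actb, +0.20 with equal totals and +0.22 with the GC trend removed. Scaling to Actb and equal totals moved the median of all genes that reached a log2 value of 8 in both libraries to +0.10 and +0.13. Relative to that shift, Junb was at -0.69 and the median of the 10 genes at +0.07, as with median-ratio scaling. At a threshold of 1.5-fold in place of 2-fold, 3 genes passed. Quantile normalization left 1 gene (Fosb) past 1.5-fold lower, scaling to Actb 2 (Jund and Fosb), equal totals 1 (Fosb) and removal of the GC trend 0. In the other direction, 1 gene (Batf3, +0.59) was past 1.5-fold with equal totals and 2 (Batf, +0.60, and Batf3, +0.90) with the GC trend removed, against 0 as deposited. Fosl1 turned from +0.03 to -0.0025 under quantile normalization and was at +0.38 with the GC trend removed, and no other member turned under any alternative run. The floor of 8 gave no value for Fosb and Batf3. Fosb and Batf3 rest on the fewest reads, and with 1 library per genotype depth cannot stand in for replicates.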
